A study of Mus musculus with 12 samples.

Results

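Cytosolic ribosomal protein genes encode the proteins that, with ribosomal RNA, form the large (Rpl) and small (Rps) subunits of the ribosome outside mitochondria. They were chosen here by symbol: names of the form Rpl or Rps with a number, with Rplp0, Rplp1, Rplp2 and Rpsa, and without the S6 kinases, whose symbols start with Rps6k. Of 23420 genes in the deposited count table, 86 symbols matched and 83 had at least 100 counts summed over 12 tumors, 49 of the large and 34 of the small subunit. Rpl10l and Rpl26 were listed at 0 counts and Rpl39l at 64, so these 3 were left out. Of the 83 genes, 76 are canonical ribosomal proteins (45 large, 31 small). The other 7 are the paralogs Rpl22l1, Rpl36al, Rpl3l, Rpl7l1 and Rps27l, the transcribed pseudogene Rps4y2 (now named Rps4l), and Rps19bp1, which encodes a binding partner of Rps19 and no ribosomal protein. The large and small labels follow the symbol.

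B16-F10 is a melanoma line of C57BL/6 origin, and the tumors grew under the skin of male C57BL/6J mice, so all groups share the same cell line, strain and sex. Nonobese mice received a control diet and obese mice a Western diet with 0.2% cholesterol for 15 weeks, up to a weight increase of 50%. Dosing started once a tumor could be felt. Each mouse received either clone 29F.1A12 against PD-1 or the isotype control clone 2A3, at 10 mg/kg 3 times a week. Each combination of diet and antibody, 4 groups in all, had 3 tumors. Cells were injected into 1 flank of each mouse, so each tumor stands for its own mouse, whereas shared cages or litters are not given, and P values measure the spread between these tumors. Counts per tumor summed to between 14022929 and 33871843. Melanoma markers (8 genes, among them Pmel, Tyr and Dct) summed to 24770 to 30357 CPM (counts divided by the TMM-scaled library size and scaled up, the unit of all levels here) in all 12 tumors, whereas the T and NK cell markers summed to 0.61 to 17.7 CPM.

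Ribosomal protein mRNAs are among the most abundant in growing cells. Vertebrate ribosomal protein mRNAs typically begin with a C followed by an unbroken run of pyrimidines, the 5′ terminal oligopyrimidine (TOP) tract, through which mTOR and the RNA-binding protein Larp1 adjust their translation and stability together. Subunits are assembled in the nucleolus in fixed proportion, and proteins made in excess are degraded.

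The start sites are shown for 8 of the genes described below, to let the reader see which carry a TOP-like tract at the first listed start. Each line gives 20 bases before the start and 10 from it, on the strand of the gene. Capitals mark the longest run of C and T that touches the 5 bases on either side of the start. All 83 genes matched a RefSeq gene and 62 had a promoter window in the RefSeq tables (GRCm38.p6, the assembly behind mm10). Only the first listed start of each gene was used, here and in the percentages below, although 10 of the 62 had several starts.
Rpl35, chr2:39005122-39005151, minus strand: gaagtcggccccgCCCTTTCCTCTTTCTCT
Rpl28, chr7:4792945-4792974, plus strand: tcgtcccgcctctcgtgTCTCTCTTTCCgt
Rps6, chr4:86857358-86857387, minus strand: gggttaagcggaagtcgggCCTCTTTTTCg
Rpl22l1, chr3:28805488-28805517, plus strand: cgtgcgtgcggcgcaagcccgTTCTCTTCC
Rpl39, chrX:37085213-37085242, minus strand: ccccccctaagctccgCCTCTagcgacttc
Rps21, chr2:180257359-180257388, plus strand: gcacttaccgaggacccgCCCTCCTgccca
Rps12, chr10:23787200-23787229, minus strand: ttaaataccgtcatgcggCCaccgccggcc
Rpl24, chr16:55966255-55966284, plus strand: taggaagaaagctgTTgctaggaaacagac
The whole run was 18 bases in Rpl35, 11 in Rpl28, 10 in Rps6 and Rpl22l1, and 2 in Rps12 and Rpl24. The Rps12 start used here lies inside the gene (chr10:23785183-23787383, minus strand) and not at its 5′ end. Its short run therefore does not show whether Rps12 carries a tract at that end. In Rpl35 and Rpl22l1 it goes on past the last base printed. A run of at least 5 bases was present in 33 of 62 ribosomal protein windows (53.2%) and in 32.9% of the 27025 genes with a window, and the median run was 5 and 3 bases. In the 300 bases from 250 before to 50 after the start, the letters CCGGAAG (an Ets-type motif, either strand) were present in 37.1% of ribosomal protein promoters and 9.12% of all promoters. AAGATGG (a YY1-type motif, either strand) was present in 14.5% and 6.48%, and TATAAA (either strand) in 9.68% and 14.2%. Such matches describe the letters and are not binding sites.

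Ribosomal protein genes took 3.83% to 5.60% of all counts of a tumor. The share was 4.70%, 5.46% and 5.13% in nonobese isotype tumors (5.10% ± 0.382, SD, n = 3) and 5.49%, 4.94% and 3.83% in nonobese anti–PD-1 tumors (4.75% ± 0.848, n = 3). Obese isotype tumors had 4.46%, 5.60% and 4.40% (4.82% ± 0.677, n = 3), and obese anti–PD-1 tumors had 5.25%, 4.77% and 5.24% (5.09% ± 0.274, n = 3). The 4 groups overlapped, and the lowest share belonged to tumor 3 of the nonobese anti–PD-1 group. Exact binomial 95% intervals of these shares were at most 0.012 percentage points wide on either side, for counting error only, since the reads carried no molecular identifiers. The intervals of tumors of a group did not overlap, except those of obese anti–PD-1 tumors 1 and 3. In bulk tissue, fewer cells of a type and less RNA per cell cannot be told apart.

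**Figure D1:**
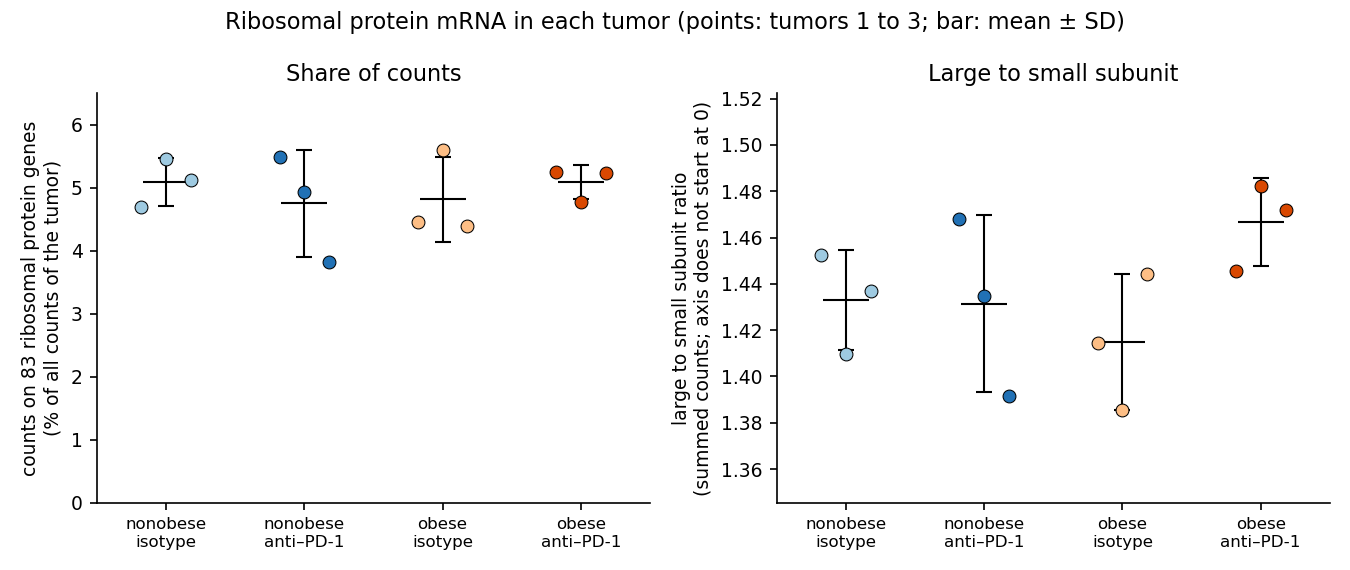
Counts on the 83 ribosomal protein genes as a percentage of all counts (left) and the ratio of summed large to small subunit counts (right, axis not from 0) in each tumor; points are tumors 1 to 3 of a group, bars the mean and SD. The shares of all groups overlap, whereas the ratio of the 3 obese anti–PD-1 tumors (1.45 to 1.48) lies above that of the 3 obese isotype tumors (1.39 to 1.44).

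The balance of the subunits varied far less than their sum. The ratio of large to small subunit counts was 1.45, 1.41 and 1.44 in nonobese isotype tumors (1.43 ± 0.0216, SD, n = 3) and 1.47, 1.43 and 1.39 in nonobese anti–PD-1 tumors (1.43 ± 0.0382). It was 1.41, 1.39 and 1.44 in obese isotype tumors (1.41 ± 0.0294) and 1.45, 1.48 and 1.47 in obese anti–PD-1 tumors (1.47 ± 0.0189). The obese groups did not overlap, although the lowest obese anti–PD-1 tumor (1.446) and the highest obese isotype tumor (1.444) were nearly level. No test was made of this sum over chosen genes, and 3 tumors against 3 cannot give an exact two-sided P below 0.1.

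Levels of single genes were compared per kilobase of transcript, as mean CPM per kilobase over 12 tumors. The highest canonical genes were Rpl32 (2990, chr6:115805514-115808743), Rplp1 (2964, chr9:61913283-61914510), which encodes an acidic protein of the stalk that recruits elongation factors, Rps15 (2014, chr10:80292431-80294114) and Rps12 (1919, chr10:23785183-23787383). At the other end stood Rpl30 (1.81, chr15:34440505-34443276), Rps27 (2.56, chr3:90212667-90213648), Rpl34 (2.92, chr3:130726827-130730398) and Rps20 (139, chr4:3831584-3835655). Rps20 was set low by its transcript in the annotation, 3706 bases long, since its 515 CPM were ordinary. The other 3 had 279, 237 and 392 counts in all 12 tumors together, whereas every other canonical gene had at least 28240.

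Such low counts of core ribosomal proteins are hard to read as their mRNA level. Of the 100-base stretches of the transcript, 98.4% in Rps27, 53.5% in Rpl30 and 31.0% in Rpl34 also occur in transcripts of other genes. Rpl10 (91.6% shared) had 210527 counts and Rps12 (88.9%) had 259381. The part of shared stretches in the counts near 0, those of Rpl26 included, was not tested. Values of all members with copies, a median of 45% shared stretches over the 83 genes, carry this uncertainty, as do genes overlapping on the opposite strand, because no source used here gives the strandedness used in counting.

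Across the 12 tumors the ribosomal protein genes moved together. Over the 73 canonical genes with at least 1000 counts, the median pairwise Pearson r of log2 CPM was 0.835, with 0.850 among large, 0.827 among small and 0.828 between large and small subunit genes. These are descriptions over 12 tumors whose genes share library, depth and scaling, and the 3 medians lay within a narrow range, highest among the large subunit genes. The first principal component held 82.7% and the second 6.1% of their variance. All these values include nonobese anti–PD-1 tumor 3, the lowest of 12 for 64 of the 73 genes. They were not computed without it, nor for other genes of similar level. Of the 73 genes, 48 had an r above 0.9 with the mean of the others and 0 were below 0.5. The closest was Rps26 (r = 0.988), and the least close were Rpl22 (0.529), an RNA-binding protein of the large subunit, Rpl12 (0.548) and Rps3 (0.565), which lies at the mRNA entry channel. The 76 mitochondrial ribosomal protein genes, which serve the separate ribosome of mitochondria, had a median pairwise r of 0.456 and of 0.526 with the cytosolic genes.

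Tumors of a group differed more than the groups did. The mean log2 level of the 83 genes, relative to the mean over all tumors, was -0.03, 0.16 and 0.07 in nonobese isotype tumors and 0.18, 0.01 and -0.44 in nonobese anti–PD-1 tumors. Obese isotype tumors stood at -0.16, 0.15 and -0.14, and obese anti–PD-1 tumors at 0.11, -0.03 and 0.11. The means of the groups lay between -0.08 and 0.07, with SDs (n = 3 each) of 0.08 to 0.32. Tumor 3 of the nonobese anti–PD-1 group was the lowest of 12 for 64 of the 73 genes (87.7%, against 14.8% of the other genes tested), and tumor 3 of the obese isotype group for the remaining 9. The TMM factor of the former was the highest of all, 1.09, and its skeletal muscle markers summed to 294 CPM, inside the range of the other tumors (6.96 to 468 CPM). Their part in its low ribosomal protein level was not tested. The median within-group SD of log2 CPM was 0.234 for the 73 genes and 0.155 for 2065 other genes of the same range of levels.

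**Figure D2:**
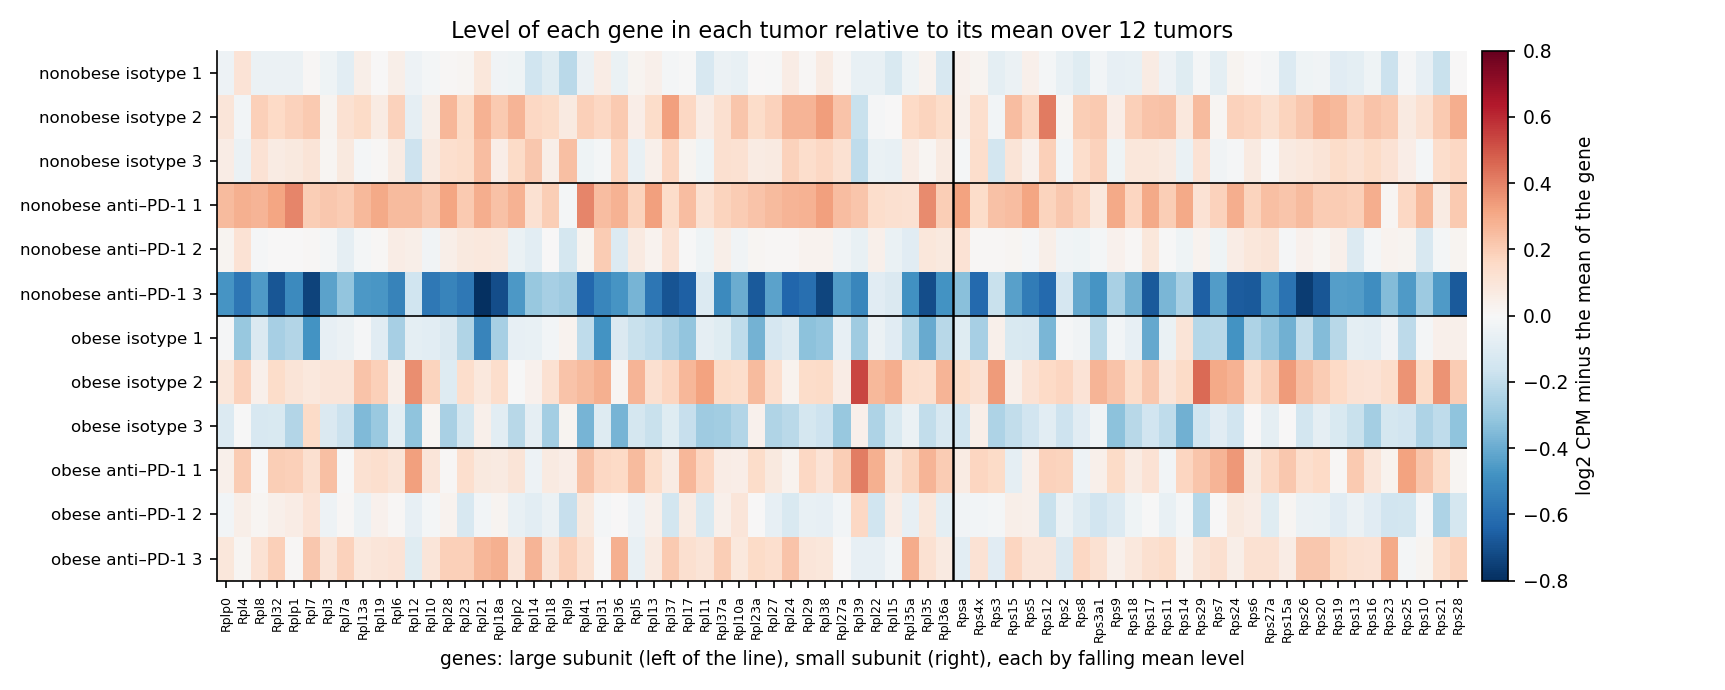
Log2 CPM of the 73 canonical ribosomal protein genes with at least 1000 counts (columns, large subunit left of the line) in each of 12 tumors (rows), as the difference from the mean of the gene over all tumors. The row of nonobese anti–PD-1 tumor 3 is blue throughout. Other rows hold genes on both sides of their own mean, such as Rpl28 below and Rpl39 above it in obese isotype tumor 2.

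Nonobese mice were compared first, with and without PD-1 blockade. The median log2 fold change of the 83 genes, all of which passed the filter on low counts, was -0.13 (large -0.13, small -0.14) against 0.02 over the 13095 genes tested, and 70 of 83 were below 0. None had an FDR below 0.05 by edgeR's quasi-likelihood test or by DESeq2, as for all genes tested by edgeR (0%). At an unadjusted P below 0.05, 0 genes were higher (1.64% of all genes tested) and 1 was lower (3.59%). Without overlap between the 3 anti–PD-1 and the 3 isotype tumors, 0 were higher (5.81%) and 2, Rps4y2 and Rpl30, were lower (5.37%). The members' shares lay below the background in each direction.

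This median depended on single tumors. Without nonobese anti–PD-1 tumor 3 it was 0.03, with 52 of 83 genes above 0, without nonobese isotype tumor 2 it was -0.07, and without tumor 1 of the anti–PD-1 group it was -0.30, with 78 below 0 and 16 genes at an unadjusted P below 0.05 (3.72% of all genes tested in that fit). In the same comparison 7 of 7 macrophage, 5 of 6 fibroblast, 2 of 5 adipocyte, 1 of 7 T and NK cell and 1 of 5 endothelial markers were lower at an unadjusted P below 0.05 by edgeR. The fibroblast markers summed to 581 to 2757 CPM with isotype and 261 to 527 CPM with anti–PD-1. Their part in the ribosomal protein values was not tested.

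Rps12 (chr10:23785183-23787383), a small subunit protein, had 922, 1245 and 1062 CPM in nonobese isotype tumors and 1053, 963 and 607 CPM in nonobese anti–PD-1 tumors. The groups overlapped, with a log2 fold change of -0.30 ± 0.20 (SE; edgeR FDR = 0.929). Rps3a1 (chr3:86137940-86142668) had -0.24 ± 0.16 (edgeR FDR = 0.929). Without nonobese anti–PD-1 tumor 3, Rps12 was at -0.12 and Rps3a1 at -0.11, and without tumor 1 of that group they were at -0.46 and -0.35. The members with the smallest P among those above 0 were Rpl22l1 (0.27 ± 0.20), Rpl12 (0.15 ± 0.17) and Rps3 (0.11 ± 0.15). Rps3 changed sign without nonobese anti–PD-1 tumor 1. With 1 tumor left out at a time, Rpl12 ranged from 0.04 to 0.22 and Rpl22l1 from 0.18 to 0.36.

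In obese mice, the values leaned the other way. The median log2 fold change with anti–PD-1 was 0.11 (large 0.13, small 0.08) against -0.01 over all genes tested, and 74 of 83 genes were above 0. No member had an FDR below 0.05 (0% of all genes tested by edgeR, and 0 members by DESeq2). At an unadjusted P below 0.05, 0 were higher (4.3%) and 0 lower (3.27%). Rpl28 was the 1 member without overlap that was higher (5.45%), and 0 were lower (7%). Without obese isotype tumor 2, which had the highest share of its group, the median was 0.23, and without obese isotype tumor 1 it was 0.07. In this comparison 6 of 7 T and NK cell, 4 of 7 macrophage, 5 of 5 adipocyte and 1 of 5 skeletal muscle markers were higher at an unadjusted P below 0.05 by edgeR, with median log2 fold changes of 3.09, 0.81, 3.01 and 2.43, and so was 1 of 2 B cell markers. The T and NK cell markers summed to 1.43 to 2.20 CPM with isotype and 4.51 to 17.7 CPM with anti–PD-1. Whether these cells bear on the ribosomal protein values was not tested.

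Rpl28 (chr7:4792965-4794547), a large subunit protein with one of the longer tracts printed above, had 670, 676 and 605 CPM in obese isotype tumors and 730, 738 and 828 CPM in obese anti–PD-1 tumors. The groups did not overlap, but the log2 fold change of 0.23 ± 0.17 (SE) had an edgeR FDR of 0.785. Rpl36 (chr17:56610094-56614246) had 407, 444 and 340 CPM with isotype and 491, 441 and 537 CPM with anti–PD-1. These overlapped narrowly, and the log2 fold change was 0.30 ± 0.17 (edgeR FDR = 0.706), the smallest P of the members in obese mice (unadjusted P = 0.0971 by edgeR). Rpl35 (chr2:39001581-39005131), which sits at the exit of the peptide tunnel, had 124, 180 and 143 CPM with isotype and 197, 175 and 178 CPM with anti–PD-1. Its log2 fold change was 0.30 ± 0.21 (edgeR FDR = 0.779), and it ranged from 0.20 to 0.47 with 1 tumor left out at a time. Among members below 0, Rpl22l1 (-0.13 ± 0.20), Rpl9 (-0.07 ± 0.14) and Rps21 (-0.06 ± 0.18) had the smallest P, and all 3 changed sign when obese isotype tumor 2 or obese anti–PD-1 tumor 2 was left out.

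**Figure D3:**
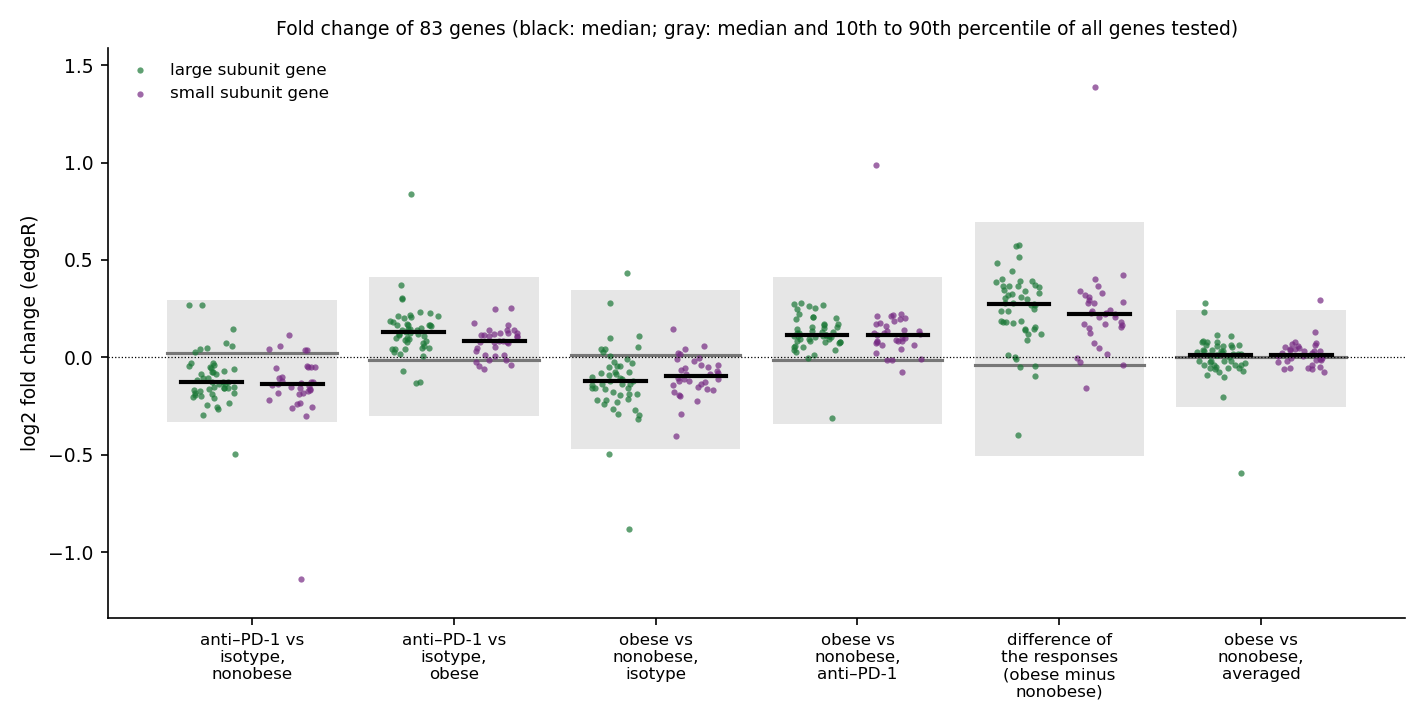
Log2 fold changes by edgeR of the 49 large and 34 small subunit genes in the 6 comparisons (points), their medians (black lines), and the median and the 10th to 90th percentile of all 13095 genes tested (gray). Most members, 69 to 77 of 83, sit on the same side of 0 in each of the first 5 comparisons (medians -0.13, 0.11, -0.11, 0.11 and 0.24), within the gray band apart from a few genes such as Rps4y2.

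Diet was then compared within each treatment. These comparisons share their tumors with the ones above, so their values are not separate support. With isotype, the median log2 fold change of obese against nonobese was -0.11 (large -0.12, small -0.10) against 0.01 over all genes tested, and 69 of 83 members were below 0. No member had an FDR below 0.05 (0% of all genes tested by edgeR), and at an unadjusted P below 0.05 there were 0 higher (7.11%) and 0 lower members (6.17%). Without overlap, 0 were higher (10.4%) and 3, Rpl21, Rpl24 and Rpl28, were lower (9.02%). The median was -0.24 without obese isotype tumor 2, and it was -0.07 without obese isotype tumor 1, -0.09 without obese isotype tumor 3 and -0.08 without nonobese isotype tumor 2. In this comparison 6 of 7 T and NK cell, 7 of 7 macrophage, 6 of 6 fibroblast, 5 of 5 adipocyte, 5 of 5 endothelial and 5 of 5 skeletal muscle markers had log2 fold changes below 0, of which 1, 3, 1, 2, 1 and 0 had an unadjusted P below 0.05 by edgeR. Their part in the ribosomal protein values was not tested.

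With anti–PD-1, the median of obese against nonobese was 0.11 (large 0.11, small 0.12) against -0.01, and 77 of 83 were above 0. No member was among the genes with an FDR below 0.05 (0.382% of all genes tested). At an unadjusted P below 0.05, 1 was higher (5.71%) and 0 lower (4.56%), and without overlap 1 was higher (6.54%) and 0 lower (7.06%). The higher gene was Rps4y2 in each count. Here too nonobese anti–PD-1 tumor 3 decided the sign: without it the median was -0.04 and 54 of 83 genes were below 0, and without tumor 1 of that group it was 0.28, with 11 genes higher at an unadjusted P below 0.05 (6.29% of all genes tested in that fit). Here 7 of 7 T and NK cell, 7 of 7 macrophage, 3 of 6 fibroblast and 5 of 5 adipocyte markers were higher in obese mice at an unadjusted P below 0.05 by edgeR, with median log2 fold changes of 3.60, 1.28, 1.42 and 3.53. The same held for 1 of 2 B cell and 1 of 5 endothelial markers, and the part of all these was not tested.

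Averaged over both treatments, the median of obese against nonobese was 0.01, with 48 genes above and 35 below 0. None of the members passed an unadjusted P of 0.05 (5.21% of all genes higher, 5.19% lower) or an FDR of 0.05 (0.183%). This median also turned with single tumors: it was -0.07 without nonobese anti–PD-1 tumor 3 (15 above and 68 below 0), 0.08 without tumor 1 of that group (78 above and 5 below 0) and -0.06 without obese isotype tumor 2 (13 above and 70 below 0).

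Rpl24 (chr16:55966275-55971437), which forms a bridge between the subunits, had 319, 370 and 348 CPM in nonobese isotype tumors and 285, 312 and 263 CPM in obese isotype tumors, without overlap. Its log2 fold change was -0.27 ± 0.18 (SE; edgeR FDR = 0.522). Rpl28 had 730, 870.5 and 797 CPM in nonobese isotype tumors, above all 3 obese isotype tumors given earlier, with -0.30 ± 0.17 (edgeR FDR = 0.458). Rpl21 (chr5:146832890-146837032) had -0.32 ± 0.24 (edgeR FDR = 0.579), a gene named here after its values were seen, because it was 1 of the 3 without overlap. With anti–PD-1, Rpl35a (0.27 ± 0.15, edgeR FDR = 0.589) and Rpl7 (0.28 ± 0.21, edgeR FDR = 0.724) followed Rps4y2 in P, while Rpsa, the protein first described as a laminin receptor, was at -0.07 ± 0.15 and Rps2 at -0.01 ± 0.13. Without nonobese anti–PD-1 tumor 3, Rpl35a was at 0.14 and Rpl7 at 0.07, and without tumor 1 of that group they were at 0.42 and 0.47.

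Rpl39 (chrX:37082518-37085222), a small protein lining the peptide exit tunnel, was among the members less close to the rest. Its levels were 192, 176 and 174 CPM in nonobese isotype tumors, 233, 192 and 139 in nonobese anti–PD-1 tumors, 164, 290 and 206 in obese isotype tumors and 266, 224 and 191 in obese anti–PD-1 tumors. Its r with the mean of the other members was 0.639. Averaged over treatments, its log2 fold change with obesity was 0.28 ± 0.15 (SE; unadjusted P = 0.0820, FDR = 0.539 by edgeR), the smallest P of the members in that comparison. With 1 tumor left out at a time it ranged from 0.15, without obese isotype tumor 2, to 0.36, without nonobese anti–PD-1 tumor 1. The groups overlapped in each treatment.

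The difference between the responses, obese minus nonobese, asked whether anti–PD-1 acted differently on these genes in the 2 diets. Its median over the 83 genes was 0.24 (large 0.28, small 0.22) against -0.04 over all genes tested, with 74 above and 9 below 0 and a median SE of 0.24 for a single gene. No member had an FDR below 0.05 (0% of all genes tested by edgeR, and 0 members by DESeq2). At an unadjusted P below 0.05, 1 was higher (7.01%) and 0 lower (5.87%). Rpl36 came next at 0.49 ± 0.24 (edgeR FDR = 0.419), followed by Rpl35a at 0.37 ± 0.21 (edgeR FDR = 0.491). The smallest P among genes below 0 belonged to Rpl22l1 (-0.40 ± 0.29, edgeR FDR = 0.583), then Rps3 (-0.16 ± 0.21) and Rpl12 (-0.10 ± 0.25). Without nonobese anti–PD-1 tumor 3 the median was 0.10, without obese isotype tumor 2 it was 0.36, and without nonobese anti–PD-1 tumor 1 it was 0.40, with 24 genes higher at an unadjusted P below 0.05 (8.73% of all genes tested in that fit). With 1 tumor left out at a time, Rpl36 ranged from 0.35 to 0.71, Rpl35a from 0.25 to 0.53 and Rpl22l1 from -0.57 to -0.21.

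**Figure D4:**
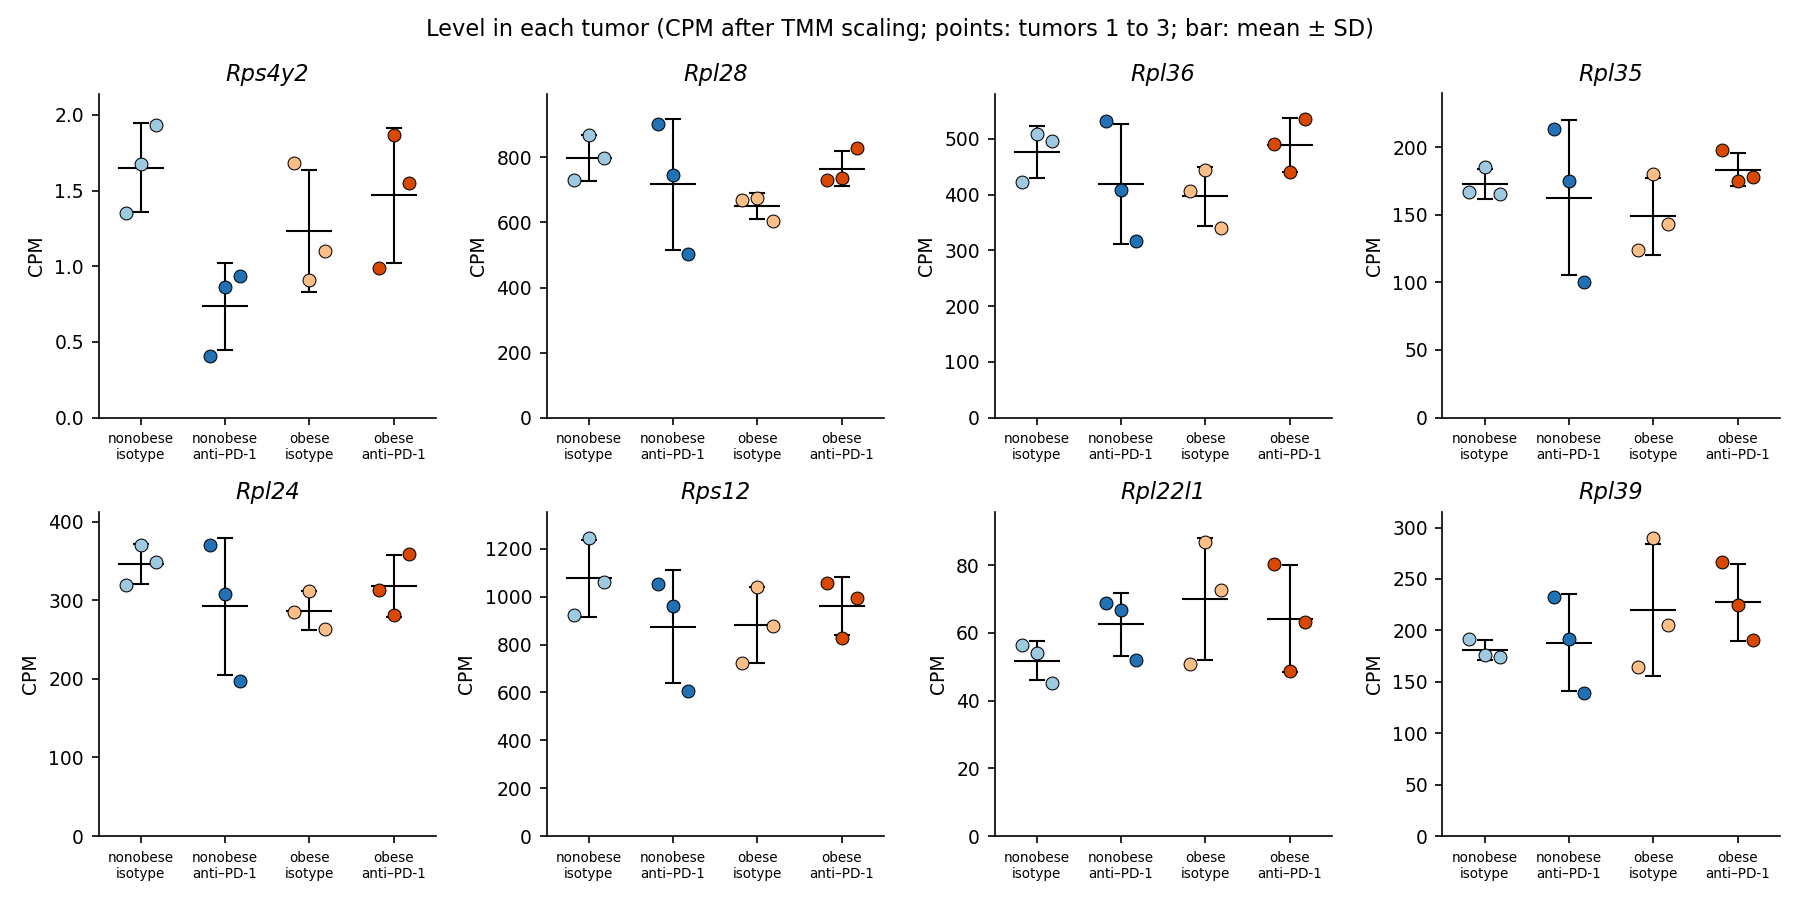
CPM of 8 named genes in each tumor (points, tumors 1 to 3 of each group; bars, mean and SD; axes from 0). Nonobese anti–PD-1 tumors are lower than nonobese isotype tumors without overlap for Rps4y2 (0.41 to 0.94 against 1.35 to 1.93 CPM), and the 3 obese isotype tumors of Rpl28 (605 to 676 CPM) lie below both the nonobese isotype and the obese anti–PD-1 tumors.

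Rps4y2 (chr6:148354656-148355596) was the only member past an unadjusted P of 0.05 in any of the 6 comparisons. It is annotated as a transcribed pseudogene, and its counts were few: 42, 57 and 34 in nonobese isotype, 8, 28 and 21 in nonobese anti–PD-1, 40, 13 and 23 in obese isotype and 14, 38 and 34 in obese anti–PD-1 tumors. As CPM, these were 1.35, 1.68 and 1.93, then 0.41, 0.87 and 0.94, then 1.68, 0.91 and 1.10, and then 0.99, 1.87 and 1.55. All nonobese anti–PD-1 tumors were below all nonobese isotype and all obese anti–PD-1 tumors. By edgeR, the log2 fold change with anti–PD-1 in nonobese mice was -1.14 ± 0.41 (SE; unadjusted P = 0.0151, adjusted P = 0.845). Obese against nonobese with anti–PD-1, edgeR gave 0.99 ± 0.41 (unadjusted P = 0.0324, adjusted P = 0.420), and for the difference of responses 1.39 ± 0.58 (unadjusted P = 0.0306, adjusted P = 0.334). Without nonobese anti–PD-1 tumor 1, the unadjusted P by edgeR were 0.0625, 0.118 and 0.0674, and over the 12 fits that each left out 1 tumor, 10, 9 and 5 kept a P below 0.05. Its canonical partner Rps4x, at a mean of 1419 CPM, had groups that overlapped.

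The paralogs were set beside their canonical partners. Rpl22l1 (chr3:28805508-28807424), which can take the place of Rpl22 in the ribosome, had 56.3, 54.1 and 45.2 CPM in nonobese isotype tumors, 68.9, 66.8 and 51.9 in nonobese anti–PD-1 tumors, 51.0, 86.7 and 72.8 in obese isotype tumors and 80.4, 48.8 and 63.3 in obese anti–PD-1 tumors. As a percentage of Rpl22 counts this was 26.5 ± 2.95, 30.2 ± 2.49, 34.9 ± 8.39 and 30.9 ± 3.35 (SD, n = 3 each). With isotype, its log2 fold change with obesity was 0.43 ± 0.20 (unadjusted P = 0.0533, FDR = 0.386 by edgeR), with overlap through obese isotype tumor 1. Without that tumor it was 0.60, and without obese isotype tumor 2 it was 0.24. Scaled to the ribosomal protein total of each tumor, an alternative added after the data were seen, it was 0.52 ± 0.20 (unadjusted P = 0.0180, FDR = 0.792 by edgeR). Under that scaling the median of all genes in this comparison moved from 0.01 to 0.13, and the directions of the whole family given above were lost, since the members then sum to the same total in each tumor.

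Rpl36al stood at 73.6% ± 4.70, 65.9% ± 7.92, 74.8% ± 9.58 and 74.4% ± 6.63 of Rpl36a in the same order of groups, with shared stretches of 59.0% and 83.6% of the 2 transcripts. Rpl7l1, a nucleolar factor of large subunit maturation, stood at 10.5% ± 0.803, 13.6% ± 4.65, 12.4% ± 2.95 and 10.7% ± 2.06 of Rpl7. The highest ratio was in nonobese anti–PD-1 tumor 3, where Rpl7 was lowest (785 CPM) and Rpl7l1 (149 CPM) was within the range of the other tumors. Rpl7l1 had the lowest within-group SD of all members, 0.13 on the log2 scale. Rpl3l, the paralog of striated muscle, had 0 to 20 counts per tumor, a mean below 0.05% of Rpl3 in each group. Its counts were 8, 19 and 7, 4, 20 and 14, 4, 2 and 7, and 0, 5 and 19, beside skeletal muscle markers (5 genes) that summed to 11.4, 303 and 267, 6.96, 158 and 294, 9.55, 15.0 and 105, and 28.1, 208 and 468 CPM. Rps27l, a p53 target, had 92.1 to 154 CPM and was not compared with Rps27, and Rps19bp1 had 31.5 to 44.3 CPM.

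Genes of the same pathway outside the symbol rule were listed for comparison. Fau, which encodes Rps30 as a fusion with a ubiquitin-like protein, had a log2 fold change of 0.23 ± 0.16 (SE; edgeR FDR = 0.772) with anti–PD-1 in obese mice and passed no test in any comparison. Of 20 other TOP mRNAs, such as the elongation factors Eef1a1 and Eef2, 0 passed an unadjusted P of 0.05 in any comparison, and their medians were -0.07, 0.07, -0.02, 0.10, 0.10 and 0.07 in the order of the comparisons above, with the difference of responses before the averaged diet effect. The 76 mitochondrial ribosomal protein genes had medians of -0.02, 0.01, 0.03, 0.05, 0.04 and 0.04. At an unadjusted P below 0.05 by edgeR, 2 of them (Mrpl19 and Mrps34) were higher with PD-1 blockade in obese mice (4.3% of all genes tested), 1 (Mrps18a) in obese mice under anti–PD-1 (5.71%) and 2 (Mrps15 and Mrps34) in the difference of responses (7.01%), and 0 were lower in any comparison. These genes were named after their values were seen.

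Of 9 translation regulators tested, none had an FDR below 0.05 in any comparison, and neither response to anti–PD-1 held a call at an unadjusted P below 0.05. In obese against nonobese mice with isotype, where 7.11% of all genes were higher and 6.17% lower at that P, Larp1, which binds TOP tracts, was lower (-0.37 ± 0.15, edgeR FDR = 0.333). Rragc, a GTPase that brings mTOR complex 1 to the lysosome, was higher in the same comparison (0.41 ± 0.12, edgeR FDR = 0.223). Its levels were 106, 97.3 and 108 CPM in nonobese and 133, 147 and 135 CPM in obese isotype tumors. Under anti–PD-1 they overlapped between the diets, at 110, 119 and 129 CPM in nonobese and 142, 108 and 112 CPM in obese tumors (0.02 ± 0.12). At an unadjusted P below 0.05, Rragc was also lower in the difference of responses (-0.39 ± 0.16, edgeR FDR = 0.335, 5.87% of all genes lower) and higher in the averaged diet effect (0.22 ± 0.08, edgeR FDR = 0.373, 5.21% of all genes higher). Myc, a transcription factor that drives ribosome production, was lower at that P in obese mice under anti–PD-1 (-0.33 ± 0.13, edgeR FDR = 0.382, 4.56% of all genes lower) and averaged over treatments (-0.29 ± 0.09, edgeR FDR = 0.290, 5.19% of all genes lower). Each of these calls is 1 of 9 genes.

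Rps6 (chr4:86854099-86857367), the small subunit protein phosphorylated by S6 kinases, is given for that role and outside the rule for named genes. It had 535, 603 and 561 CPM in nonobese isotype, 605, 568 and 335 in nonobese anti–PD-1, 451, 589 and 535 in obese isotype and 564, 556 and 580 in obese anti–PD-1 tumors. The low value was again nonobese anti–PD-1 tumor 3, and no comparison passed the test. Among 9 genes with S6 kinase symbols, 2 passed an unadjusted P of 0.05 in at least 1 of the 6 comparisons and none an FDR of 0.05. Rps6ka2 was lower in obese mice with isotype (-0.49 ± 0.16), under anti–PD-1 (-0.54 ± 0.16) and in their average (-0.52 ± 0.11, unadjusted P = 0.000507, FDR = 0.125 by edgeR), where 6.17%, 4.56% and 5.19% of all genes were lower at an unadjusted P below 0.05. Rps6ka1 was lower in obese mice with isotype (-0.36 ± 0.11, edgeR FDR = 0.250), and higher in the response of obese mice (0.30 ± 0.11, edgeR FDR = 0.517) and in the difference of responses (0.40 ± 0.15, edgeR FDR = 0.296), where 4.3% and 7.01% of all genes were higher at that P. These 2 belong to the p90 branch of kinases activated by ERK, whereas Rps6kb1 and Rps6kb2, the kinases of the mTOR pathway, were among those that did not pass.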

How the data were processed

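Total RNA of 12 tumors was made into TruSeq stranded mRNA libraries from 180 ng and sequenced as reads of 100 bp. According to the submitters' processing notes, the tools were FastQC 0.11.5, STAR 2.7.0f, HTSeq 0.9.1 and edgeR 3.28.1, with the build mm10. The authors deposited raw counts per gene symbol, whole numbers without normalization, in 1 table, and every column was matched by name to a tumor.

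Counts of all genes were tested here with edgeR 4.0.16 in R 4.3.3. filterByExpr kept 13095 of 23420 genes, scaling was TMM, and 1 negative binomial model of 4 group means (8 residual degrees of freedom) was tested by the quasi-likelihood F-test with legacy=TRUE. FDR is Benjamini-Hochberg over all genes tested, and the SE was derived from the F statistic. The 6 comparisons were anti–PD-1 in each diet, diet in each treatment, the difference of responses and the averaged diet effect. Log2 CPM had a prior count of 2. The code was tested on simulated data. The members, gene lists and tests were chosen with earlier results of these data known. Named genes were those past FDR 0.05 or past a fold change of 2 with P below 0.05, the 3 with the smallest P per direction and comparison, the 4 highest and 4 lowest canonical genes per kilobase, the paralogs, and the listed companion genes. Sums and medians over members were given no P. Library totals of 14022929 to 33871843 counts leave counting error small except for members with under 400 counts in all. Alternatives were DESeq2 1.42.0, RLE scaling, TMM without ribosomal protein genes, no filter or at least 10 counts in every tumor, the current glmQLFit, a replicate block, only the tumors compared, each tumor left out and, added later, scaling to the ribosomal protein total. Transcript lengths and shared stretches came from GENCODE vM21, promoters and coordinates (1-based) from RefSeq GRCm38.p6. 1 companion gene is not reported here.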

Additional observations from a re-analysis of the deposited data

Results flagged for a closer look

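Rps4y2 was the only member whose responses to anti–PD-1 differed between the diets at an unadjusted P below 0.05 (difference of 1.39 on the log2 scale, unadjusted P = 0.0306, adjusted P = 0.334 by edgeR's quasi-likelihood test). It rests on 8 to 57 counts per tumor, and the unadjusted P ranged from 0.0167 to 0.0819 when each tumor was left out in turn, with 5 of 12 below 0.05. The test of samples standing apart within a group needs at least 4 samples and was not applied to groups of 3.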

How the results depend on the processing

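No member had an FDR below 0.05 in any comparison under any alternative. Tumors with the same replicate number had a mean r of 0.133 (18 pairs, 10 over 0.1), against -0.0623 for tumors with different numbers (36 pairs, 13 over 0.1). What the numbers stand for is not given, so they were not taken as pairs in the main test. The replicate block left each count of members at an unadjusted P below 0.05 as it was (1 lower with anti–PD-1 in nonobese mice). Its median for the difference of responses was 0.26. Under these alternatives the counts moved. For lower members with anti–PD-1 in nonobese mice, the count was 0 with at least 10 counts in every tumor and 0 scaled to the ribosomal protein total. Leaving out tumors it was 0 to 16, and 3.72% of all genes tested were lower in the fit with 16. For higher members in obese mice the count was 1 with only the tumors compared, and 0 to 3 leaving out tumors. In the fit with 3, 5.57% of all genes tested were higher. For obese against nonobese with isotype, higher members numbered 1 without filter, by DESeq2 and with only the tumors compared, and 2 scaled to the ribosomal protein total. Leaving out tumors they numbered 0 to 1, and 5.59% to 8.13% of all genes tested were higher in the fits with 1. Lower members numbered 3 with only the tumors compared and 0 to 4 leaving out tumors. In the fit with 4, 7.62% of all genes tested were lower. With anti–PD-1, higher members numbered 0 with at least 10 counts, scaled to the total or with only the tumors compared, and 0 to 11 leaving out tumors. In the fit with 11, 6.29% of all genes tested were higher. For the difference of responses, higher members numbered 2 by RLE, DESeq2 and TMM without ribosomal protein genes, 0 scaled to the total and 0 to 24 leaving out tumors. In the main fit 7.01% of all genes tested were higher, and in the fit with 24 it was 8.73%. Lower members numbered 1 scaled to the total and 0 to 1 leaving out tumors. In the fit with 1, 5.59% of all genes tested were lower. For the averaged diet effect, 1 was higher scaled to the total, with 0 to 2 higher and 0 to 2 lower leaving out tumors. In the fits with 2, 6.26% of all genes tested were higher and 5.78% lower. For the other alternatives such shares are not given here, so their counts are not read against a background. The shares of the main fit stand with each comparison above.

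The median difference of responses was 0.0217 scaled to the ribosomal protein total, which by construction removes what the members share. Leaving out tumors turned the sign of weak named values. The ranges were -0.000495 to 0.187 (Rps3), with anti–PD-1 in nonobese mice; -0.298 to 0.0582 (Rpl22l1), -0.146 to 0.0376 (Rpl9) and -0.169 to 0.107 (Rps21), in obese mice; -0.0240 to 0.265 (Rps3), for obesity with isotype; -1.79 to 0.196 (Rpl3l), -0.0984 to 0.0891 (Rps2) and -0.214 to 0.0776 (Rpsa), for obesity with anti–PD-1; and -0.226 to 0.124 (Rpl12) and -0.276 to 0.0129 (Rps3), for the difference of responses. Rps2 was also 0.00713 for obesity with anti–PD-1 with at least 10 counts in every tumor. The highest counts, 16, 11 and 24, came without nonobese anti–PD-1 tumor 1, where 3.72%, 6.29% and 8.73% of all genes tested were called in the same directions. The counts of 3 higher in obese mice and 4 lower with isotype came without tumor 3 of that group. In that fit 5.57% of all genes tested were higher in obese mice and 7.62% lower with isotype. The 10-count filter leaves out Rps4y2, Rpl3l, Rpl34 and Rps27, and the cause of the other changes was not tested. With 3 tumors per group and a median SE of 0.17 per gene, log2 changes as small as the medians above could not be detected for single genes.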
